A study of Mus musculus with 4 samples.

Results

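The ErbB family comprises the receptor tyrosine kinases encoded by Egfr, Erbb2, Erbb3 and Erbb4, and the ligands that carry an EGF-like domain. The 10 genes described here, 4 receptors and 6 ligands (Areg, Ereg, Hbegf, Tgfa, Nrg1 and Btc), were chosen by gene family from the 24453 genes in the deposited files, and all 10 were found by symbol. The choice was made with earlier results of these data known, and a measured value entered it, the near absence of Erbb4 reads in the control libraries. Erbb4 is therefore described with no test. The choice had no numerical threshold.

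RNA was measured by sequencing in epithelial cells of the mouse tongue on embryonic day 16, sorted by the surface adhesion molecule EpCAM from tongues without the circumvallate papilla. There were 4 libraries, 2 labelled control, whose alleles the labels do not list, and 2 labelled Ring1a/b 2KO with the genotype Ring1a-/- Ring1bfl/fl K14-Cre+. Ring1a and Ring1b (gene symbols Ring1 and Rnf2) encode the catalytic subunits of Polycomb repressive complex 1, which keeps developmental genes silent. The Cre recombinase is driven by the Krt14 promoter, which is active in basal cells of stratified epithelium, while the Ring1a loss is in all cells of the embryo. Nothing in the labels ties a replicate to its own embryo or litter, and the spread that the p-values rest on may thus be technical. In the following, 2KO stands for the libraries so labelled.

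Total counts ran from 16256569 to 20624055 per library. The ribosomal RNA precursor gene Rn45s took 15.3% to 16.7% of the counts in control and 20.2% to 22.9% in 2KO. Neither targeted gene was lower in 2KO, since Ring1 stood at 9.02 and 8.57 CPM (read counts scaled to library size) in control and at 16.8 and 15.0 CPM in 2KO, and Rnf2 at 34.0 and 51.3 against 62.9 and 62.4 CPM. The deleted part of each gene is not in the labels, so these counts leave the genotype unchecked. The 8 epithelial markers summed to 13894 and 11544 CPM in control and 9539 and 10021 CPM in 2KO, and of these Krt5 and Krt14, keratins of basal cells, were called lower and Krt18, a keratin of simple epithelium, higher (log2 fold changes -0.45, -0.72 and 0.82, edgeR). Skeletal muscle markers summed to 364 CPM in control 2 against 53.7 to 72.0 CPM in the other 3, and markers of suprabasal and cornified keratinocytes to 6146 and 8269 CPM in control against 1850 and 2569 CPM in 2KO. Of 11 suprabasal and cornified markers tested, edgeR called 7 lower and 1 higher. The higher marker was Lor (log2 fold change 2.09, adjusted p = 0.0129, edgeR), while Krt1 (-0.21) overlapped between groups.

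ErbB receptors are activated when a ligand on or shed from a neighbouring cell brings receptors together as pairs. Erbb2 binds no ligand of its own and serves as the preferred partner of the others, while Erbb3 has little kinase activity and signals through its partners. Areg and Tgfa bind Egfr, Hbegf, Ereg and Btc bind Egfr and Erbb4, and neuregulins such as Nrg1 bind Erbb3 and Erbb4. In keratinocytes the pathway is known for driving proliferation and migration through the Ras and ERK kinases.

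Of the receptors, Egfr, Erbb2 and Erbb3 were abundant in every library and none passed the test, whereas Erbb4 went from a few reads in control to about 100 reads per library in 2KO. None of the 6 ligands passed the test either. Among the 9 members other than Erbb4, 0 were called at an adjusted p under 0.05 (edgeR quasi-likelihood test), against 11.9% of the 15336 genes tested, 7.00% higher and 4.92% lower. At an unadjusted p under 0.05 there were 4, all ligands, against 27.7% of all tested genes. DESeq2 and limma-voom each called 1 of the 9, Tgfa, against 16.4% and 12.8% of all genes. Groups did not overlap for 6 of the 9, of which 4 had both 2KO libraries above both controls and 2 below. Of all tested genes, groups did not overlap for 57.7%, with 29.0% above and 28.7% below. Over the 9 members the log2 fold change had a median of -0.01, and over all genes tested of 0.01.

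**Figure D1:**
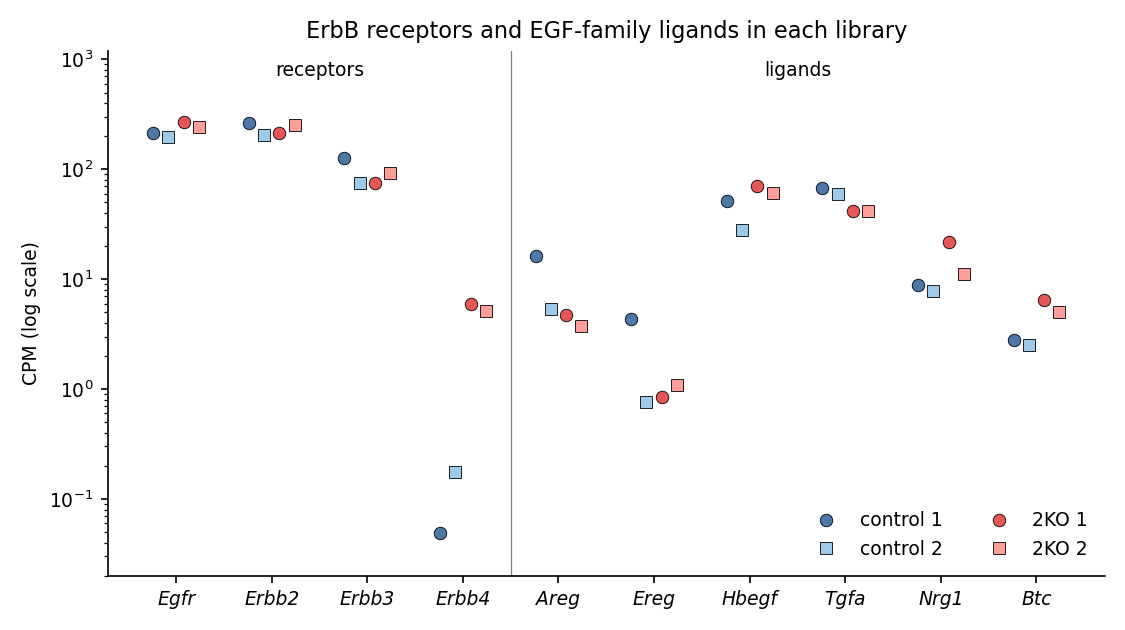
Level of each member in each library, in CPM on a log axis, with circles for replicate 1 and squares for replicate 2. Erbb4 lies at 0.0490 and 0.176 CPM in control against 5.90 and 5.10 CPM in 2KO, while the points of Erbb2, Erbb3 and Ereg overlap between groups.

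Egfr, the receptor for most ligands of the family, stood at 216 and 196 CPM in the controls against 271 and 241 CPM in 2KO. Both 2KO libraries lay above both controls, by a log2 fold change of 0.32 (standard error 0.151, 95% interval -0.02 to 0.65, adjusted p = 0.204, edgeR). Erbb2 stood at 262 and 206 CPM in control against 213 and 251 CPM in 2KO, and the groups overlapped. Its log2 fold change was -0.01 (interval -0.38 to 0.36, adjusted p = 0.972). The sign turned without control 1 (0.19), without 2KO 1 (0.09) and with upper-quartile scaling (0.04). Exons of Erbb2 overlap those of Mien1 on the other strand, and the strand setting of the counting is not given in the sources used here, so reads of such a pair cannot be told apart. Erbb3 stood at 127 and 75.2 CPM in control against 74.9 and 91.8 CPM in 2KO. Here control 1 was high and the other 3 libraries were close together, with a log2 fold change of -0.28 (interval -0.80 to 0.24, adjusted p = 0.494). Without control 2 Erbb3 was called lower (-0.60, adjusted p = 0.0390), and without control 1 its sign turned (0.17, adjusted p = 0.641). The intervals are not adjusted for the number of genes, and they leave room for changes of Egfr, Erbb2 and Erbb3 up to their bounds.

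Erbb4, a receptor for neuregulins best known from heart and nervous system, spans 1076 kb of chromosome 1 (68032186 to 69108059, mm10, minus strand). It had 1 and 3 counts in the controls and 104 and 103 counts in 2KO. The groups lay far apart and the 2KO libraries were close to each other, at 5.90 and 5.10 CPM against 0.0490 and 0.176 CPM. The ratio of the 2KO counts to the control counts, scaled to library size, was 51.2 with a 95% counting interval of 19.7 to 190. That interval rests on 4 control reads, is no test of a difference for which Erbb4 was picked, and covers counting error only, since reads amplified before sequencing are not independent molecules. Reads of the other 3 receptors are far more numerous, so Erbb4 was still a small part of receptor RNA in 2KO. On the FPKM scale, which divides by gene length, Erbb4 was at 0.00336 and 0.0113 in control and at 0.361 and 0.312 in 2KO, which is 0.312% and 0.268% of the summed receptor level in the 2KO libraries. With counts divided by exon length in place of FPKM, these shares were 0.613% and 0.485%. In bulk samples a few cells with much Erbb4 RNA and many cells with little cannot be told apart.

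The 250 bases before the annotated start of Erbb4 are shown because its reads went from near absence to presence, with each CG dinucleotide in capitals. The sequence is from RefSeq, build GRCm38.p6 (mm10), chr1:69108060-69108309, minus strand, 5′ to 3′.
Erbb4: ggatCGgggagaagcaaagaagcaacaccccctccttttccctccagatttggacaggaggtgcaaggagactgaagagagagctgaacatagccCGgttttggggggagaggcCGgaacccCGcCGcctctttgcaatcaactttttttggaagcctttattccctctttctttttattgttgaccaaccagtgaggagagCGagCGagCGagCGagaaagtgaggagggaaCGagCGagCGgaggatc
This window held 12 CG dinucleotides and 54% G and C. Of 32851 such windows, 33.5% held at least 12 CG, and the median was 6. RefSeq windows were matched for 6 of the 10 members, and 5 of these held more CG than the median. Tgfa had 19, Erbb2 16, Areg 15, Egfr 11 and Btc 4.

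By the distance of log2(CPM + 0.5) over the 4 libraries, the nearest tested genes were Fezf1 (0.468), Hoxc6 (0.486) and Ppp1r1a (0.494). Predicted gene models (Gm and Rik symbols) were left out of this search. Fezf1, a zinc-finger factor of the forebrain, had 2 and 2 counts in control and 113 and 141 in 2KO, and Hoxc6, a body-axis factor, had 0 and 0 against 92 and 99. Ppp1r1a, an inhibitor of protein phosphatase, had 0 and 3 against 75 and 88. With 4 libraries this likeness is little more than a shared difference between groups. Schwann and neural crest markers summed to 92.0 and 108 CPM in control and 97.6 and 124 CPM in 2KO, with 0 of 9 tested called by edgeR, and neuronal markers to 55.9 and 66.8 against 60.2 and 68.0 CPM, with a median log2 fold change of 0.90 and 1 of 10 called in each direction. Endothelial markers summed to 26.4 and 32.3 CPM in control and to 44.4 and 68.0 CPM in 2KO, with a median log2 fold change of 1.20 and 0 of 10 called. Immune markers summed to 32.4 and 24.1 CPM in control against 58.8 and 49.3 CPM in 2KO, with a median log2 fold change of 0.0037 over the 6 tested. Of these 6, 1 was called, Cd68 of macrophages (log2 fold change 1.37, adjusted p = 0.0123, edgeR). Cd3e of T cells stood at 0 in both controls. Mesenchymal markers summed to 312 and 381 CPM in control and to 387 and 356 CPM in 2KO. Their median log2 fold change was 0.32, and of 10 tested, edgeR called 1 lower and 0 higher. The part of these cells in the Erbb4 counts was not tested.

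Among ligands, Tgfa (transforming growth factor alpha, a ligand of Egfr alone) came nearest to the threshold. It stood at 67.5 and 60.2 CPM in control against 41.5 and 41.8 CPM in 2KO. Both 2KO libraries were below both controls and nearly equal. The log2 fold change was -0.62 (standard error 0.184, interval -1.02 to -0.21, adjusted p = 0.0525, edgeR). It was called lower with DESeq2 (adjusted p = 0.0360), with limma-voom (0.0484) and without control 2 (-0.69, adjusted p = 0.0361). Leaving out any of the other 3 libraries gave -0.51 to -0.63, with adjusted p of 0.133 without control 1, 0.210 without 2KO 1 and 0.188 without 2KO 2.

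Areg and Ereg (amphiregulin and epiregulin, inducible ligands of Egfr, the second also of Erbb4) stood apart in control 1. Areg was at 16.1 and 5.40 CPM in control against 4.71 and 3.71 CPM in 2KO. The groups did not overlap, but control 2 lay near the 2KO libraries, and the log2 fold change of -1.36 had a standard error of 0.536 (adjusted p = 0.125, edgeR). Without control 2 Areg was called lower (-1.93, adjusted p = 0.00254), and without control 1 the difference was -0.34 (adjusted p = 0.776). Ereg was at 4.31 and 0.763 CPM in control against 0.851 and 1.09 CPM in 2KO. Only control 1 was high, and the groups overlapped. Its log2 fold change of -1.39 (interval -3.56 to 0.79, adjusted p = 0.405) became 0.37 without control 1. Exons of Ereg, Tgfa and Nrg1 overlap a noncoding gene on the other strand, which may leave their reads mixed with those of the partner.

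Hbegf (heparin-binding EGF-like growth factor, a ligand of Egfr and Erbb4) was at 51.7 and 28.0 CPM in control against 70.3 and 60.6 CPM in 2KO. Both 2KO libraries were above both controls, and the controls differed more from each other than the 2KO libraries did. The log2 fold change was 0.71 (standard error 0.264, interval 0.13 to 1.30, adjusted p = 0.104, edgeR). Without control 1 Hbegf was called higher (1.25, adjusted p = 0.000257), and without control 2 the difference was 0.35 (adjusted p = 0.360).

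Nrg1 (neuregulin 1, a ligand of Erbb3 and Erbb4) was at 8.87 and 7.75 CPM in control against 21.7 and 11.2 CPM in 2KO. Here the spread lay in 2KO, where replicate 1 was high. The log2 fold change was 0.98 (interval 0.16 to 1.80, adjusted p = 0.115, edgeR), or 1.37 without 2KO 2 (called higher, adjusted p = 0.0355) and 0.42 without 2KO 1 (adjusted p = 0.751). Btc (betacellulin, a ligand of Egfr and Erbb4) was at 2.79 and 2.52 CPM in control against 6.46 and 5.05 CPM in 2KO. The groups did not overlap and both pairs of replicates were close. The log2 fold change of 1.11 did not pass (standard error 0.559, interval -0.12 to 2.34, adjusted p = 0.227), at 43 to 114 counts per library.

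**Figure D2:**
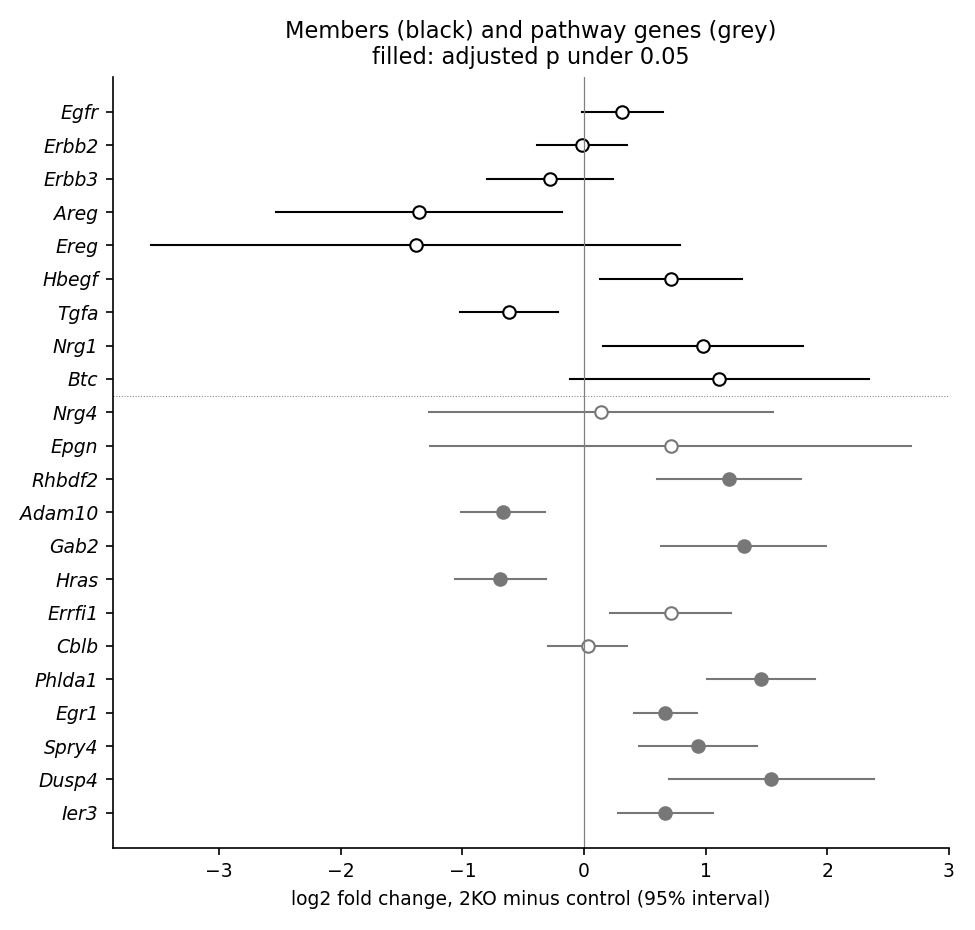
Log2 fold change of 2KO against control with its 95% interval, not adjusted over genes, for the 9 members other than Erbb4 (black) and for named pathway genes (grey). Filled points passed the test at an adjusted p under 0.05; no member is filled, and intervals of Tgfa, Areg, Hbegf and Nrg1 do not reach 0.

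For the ligands Areg, Ereg and Hbegf, much of the spread lay between the controls. Control 1 was above control 2 for 9 of the 10 members, against 50.0% of all tested genes. The ratio of control 1 to control 2 was 2.99 for Areg (95% counting interval 2.36 to 3.81), 5.65 for Ereg (3.14 to 11.0), 1.85 for Hbegf (1.66 to 2.06) and 1.68 for Erbb3 (1.57 to 1.80). On the log2(CPM + 0.5) scale, 1.62% of tested genes had a wider gap between controls than Ereg and 4.29% a wider gap than Areg. For Hbegf this share was 15.1%, for Erbb3 19.4%, for Tgfa 71.7%, for Nrg1 68.6% and for Btc 78.6%. The median gap was 0.32 both over the members and over all tested genes. For 5 of the 10 members the gap between controls was wider than that between the group means, against 42.5% of tested genes. Erbb4 is among the 10 in these counts and in the median, though its control level entered the choice. It is the member with control 1 below control 2, and it is not among the 5. In 2KO, Nrg1 had the widest gap of the 10 members, with a ratio of replicate 1 to replicate 2 of 1.94, and 10.6% of tested genes had a wider one. The muscle markers given above were higher in the other control library, control 2, and their part in these gaps was not tested.

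Levels were compared between genes on the FPKM scale. Among receptors in control the order was Erbb2 (58.4 and 47.6 FPKM), Egfr (39.6 and 33.6), Erbb3 (26.0 and 16.4) and Erbb4, and no neighbours in that order overlapped. In 2KO, Erbb2 (49.4 and 53.9) and Egfr (51.6 and 42.6) overlapped, while Erbb3 (14.5 and 19.5) and Erbb4 were separate below them. The ratio of Egfr to Erbb2 was 0.678 and 0.705 in control and 1.05 and 0.791 in 2KO. Erbb2 stood at or above 95.1% to 96.0% of the genes in the file in control. The order of receptors depended on the scale. On counts divided by exon length, Erbb3 was above Egfr in control 1 (23.3% against 21.1% of the summed receptor level). In control 2 Erbb3 was below Egfr. In 2KO, Erbb2 (52.6% or more of that sum) and Egfr (30.8% or less) did not overlap. The ratio of Egfr to Erbb2 was then 0.379 and 0.437 in control and 0.585 and 0.442 in 2KO.

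Among ligands in control, Hbegf (21.1 and 10.6 FPKM), Tgfa (15.2 and 13.5) and Areg (14.9 and 4.58) overlapped with each other. Below them came Nrg1 (2.42 and 2.30), then Btc (0.865 and 0.732) and Ereg (0.825 and 0.122), which overlapped. In 2KO Hbegf (31.1 and 26.2) stood alone at the top, above Tgfa (9.54 and 9.18). Nrg1 (7.39 and 3.52) and Areg (4.73 and 3.67) overlapped below Tgfa, followed by Btc (1.81 ± 0.299, SD, n = 2) and Ereg (0.184 and 0.237). The order of ligands depended on the scale too. On counts divided by exon length, Areg in 2KO (13.6% and 12.5% of the summed ligand level) lay above Nrg1 (7.33% and 4.41%). In control 1 Areg (36.0%) was then above Hbegf (29.0%), and in control 2 below it (21.2% against 27.6%). On the FPKM scale, ligands summed to 0.445 and 0.327 of the summed receptor level in control and to 0.474 and 0.382 in 2KO. This ratio overlapped between groups.

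The shares of 5 of the 6 ligands in the ligand sum did not overlap between groups, the exception being Ereg, and Nrg1 separated only narrowly. Shares of a sum depend on each other, so these are not 5 separate results. For levels, groups did not overlap for 57.7% of all tested genes. Hbegf was 38.2% and 33.4% of the summed ligand FPKM in control and 56.5% and 59.0% in 2KO, and Tgfa 27.5% and 42.4% against 17.4% and 20.6%. Areg was 26.9% and 14.4% in control and 8.62% and 8.26% in 2KO. Nrg1 was 4.39% and 7.23% against 13.5% and 7.92%, and Btc 1.56% and 2.30% against 3.68% and 3.60%. Grouped by the receptors they bind, a grouping chosen after the values were seen, ligands of Egfr but not Erbb4 (Areg and Tgfa) summed to 30.0 and 18.1 FPKM in control and to 14.3 and 12.8 in 2KO. Ligands of Erbb4 (Hbegf, Btc, Ereg and Nrg1) summed to 25.2 and 13.8 FPKM in control and to 40.7 and 31.6 in 2KO. Most of this sum came from Hbegf, Btc and Ereg, which bind Egfr as well. Their part was 22.8 and 11.5 FPKM in control and 33.3 and 28.1 in 2KO. The ratio of the Erbb4 ligand sum to the Areg and Tgfa sum was 0.840 and 0.763 in control and 2.85 and 2.46 in 2KO. It does not compare Erbb4 ligands with all Egfr ligands. The ratio of Hbegf to Tgfa was 1.39 and 0.787 against 3.26 and 2.86. These are descriptions with no test, since the grouping followed the values. With counts divided by exon length in place of FPKM, the ratio of the Erbb4 ligand sum to the Areg and Tgfa sum was 0.558 and 0.531 in control. In 2KO it was 1.78 and 1.58.

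**Figure D3:**
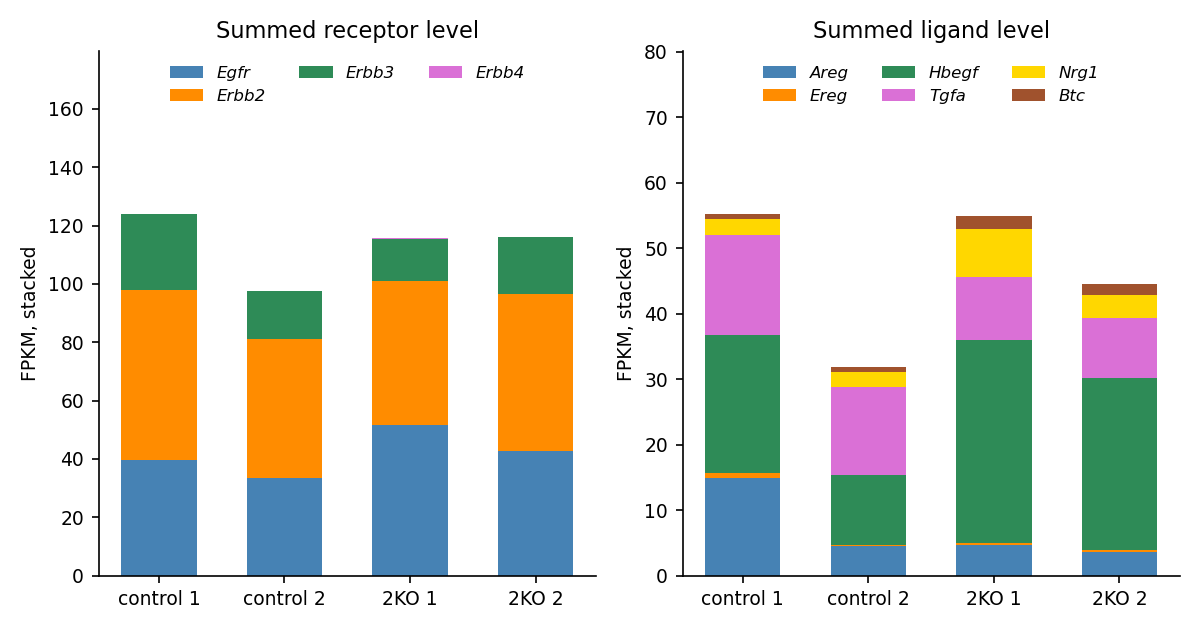
Stacked FPKM of the 4 receptors (left) and the 6 ligands (right) in each library. Receptor stacks reach 97.6 to 124 FPKM with Erbb4 hardly visible, and ligand stacks 31.9 to 55.3 FPKM with Hbegf as the thickest layer in both 2KO libraries.

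Areg, Ereg, Btc and a further ligand gene, Epgn (epigen), lie within 376 kb of chromosome 5, with the predicted gene Gm19619 (0 counts in every library) between Areg and Btc. In order these are Epgn (91027464 to 91035215), Ereg (91074622 to 91093646), Areg (91139599 to 91148432) and, on the other strand, Btc (91357261 to 91402994, all mm10). None of the 4 ligand genes was called by edgeR, and by position of the libraries they did not share a direction. Btc and Epgn had both 2KO libraries above both controls, Areg had both below, and Ereg overlapped. Of all tested genes, groups did not overlap for 57.7%. Epgn was at 1.67 and 0.704 CPM in control against 1.93 and 1.98 CPM in 2KO (log2 fold change 0.71, adjusted p = 0.664, edgeR).

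The 250 bases before Areg and Btc are shown because these nearby genes lay on opposite sides of control, though neither was called. They are again from RefSeq, build GRCm38.p6, with CG in capitals, at chr5:91139349-91139598, plus strand, and chr5:91402995-91403244, minus strand.
Areg: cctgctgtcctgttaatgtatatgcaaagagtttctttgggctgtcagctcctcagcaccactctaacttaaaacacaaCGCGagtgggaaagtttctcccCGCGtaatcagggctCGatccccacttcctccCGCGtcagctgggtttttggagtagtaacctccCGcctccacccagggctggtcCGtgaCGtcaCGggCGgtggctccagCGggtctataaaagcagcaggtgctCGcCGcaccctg
Btc: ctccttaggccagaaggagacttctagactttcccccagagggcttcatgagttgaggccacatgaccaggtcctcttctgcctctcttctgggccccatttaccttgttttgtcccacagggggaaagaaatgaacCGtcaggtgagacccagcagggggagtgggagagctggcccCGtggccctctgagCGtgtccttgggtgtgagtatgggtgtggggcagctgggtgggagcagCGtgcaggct
The Areg window held 15 CG and the Btc window 4, beside a median of 6, and at least 4 were held by 62.2% of windows. On either strand, the Areg window held the letters TATAAA (the core promoter box), found in 12.4% of all windows, and TGACGTCA (a cyclic AMP response element), found in 1.55% and looked for after the sequence was seen. The Btc and Erbb4 windows held neither, and none of the 3 held TGANTCA (the AP-1 motif), present in 6.75% of windows. These are matches of letters in a short window and no more.

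Of the other EGF-family ligands (Egf, Epgn, Nrg2, Nrg3 and Nrg4), 4 of 5 were tested and edgeR, DESeq2 and limma-voom called 0. At an unadjusted p under 0.05, reached by 27.7% of all tested genes, there was 1. That gene was Nrg2, a neuregulin, which was picked out here after its values were seen. It had 7 and 1 counts in control and 34 and 39 in 2KO, 9.03 times as many after scaling, with 4.35 to 21.7 as the counting interval (log2 fold change 3.19, adjusted p = 0.105, edgeR). Nrg4 was at 4.46 and 2.82 CPM in control against 5.61 and 2.42 CPM in 2KO (adjusted p = 0.918). For Nrg4 the deposited FPKM values did not follow the counts, at 1.91 and 0.655 in control and 0.435 and 0.657 in 2KO. Nor did they for Egf, with 45 and 32 counts in control against 16 and 17 in 2KO. Its FPKM was 0.305 and 0.0806 in control against 0.0873 and 0.311 in 2KO. Nrg3 was not tested, with 4 counts in 2KO 2 and none in the other libraries.

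Of 9 genes of ligand shedding, 1 rose, 1 fell and 7 did not pass, with a median log2 fold change of -0.33. Of all tested genes, edgeR called 7.00% higher and 4.92% lower. Rhbdf2, an inactive rhomboid that carries the sheddase Adam17 to the cell surface, rose from 19.6 and 12.3 CPM in control to 36.7 and 36.5 CPM in 2KO (log2 fold change 1.19, adjusted p = 0.0173, edgeR). Adam10, a protease that releases Btc and Egf from the membrane, fell from 144 and 139 CPM to 87.3 and 90.6 CPM (-0.67, adjusted p = 0.0199). The Adam10 call was lost without 2KO 1 (-0.65, adjusted p = 0.101) and without 2KO 2 (-0.70, adjusted p = 0.0647). Adam17, which releases Tgfa, Areg and Hbegf, was at 69.7 and 74.3 CPM in control and 56.9 and 49.7 CPM in 2KO (adjusted p = 0.144), with exons that overlap those of Iah1.

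Of 22 adaptors and transducers 1 rose, 1 fell and 20 did not pass, with a median log2 fold change of -0.03. Over all tested genes 11.9% passed, so these 2 calls are no more than the list would hold at that share. Gab2, a docking protein for receptor tyrosine kinases, rose from 7.55 and 7.39 CPM to 20.0 and 17.2 CPM (log2 fold change 1.31, adjusted p = 0.0203, edgeR). Hras, a small GTPase upstream of ERK, fell from 106 and 99.6 CPM to 60.3 and 67.5 CPM (-0.69, adjusted p = 0.0251). Both calls were lost without 2KO 1, at 1.20 for Gab2 (adjusted p = 0.123) and -0.61 for Hras (adjusted p = 0.159). Of 13 receptor inhibitors and turnover genes edgeR called 0, with 2 at an unadjusted p under 0.05 and 2 called by DESeq2 and by limma-voom. The shares of all genes were 27.7% at that unadjusted p, 16.4% with DESeq2 and 12.8% with limma-voom. Errfi1, a feedback inhibitor of Egfr, was at 284 and 165 CPM in control against 399 and 336 CPM in 2KO (log2 fold change 0.71, adjusted p = 0.0638). Its log2 fold change was 1.18 without control 1, 0.38 without control 2, 0.58 without 2KO 1 and 0.82 without 2KO 2. The controls differed by a ratio of 1.72, a gap wider than that between the group means. Cblb, a ubiquitin ligase that acts on the receptors, was at 267 and 271 CPM in control against 294 and 255 CPM in 2KO.

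Of 17 genes induced by ERK signalling or feeding back on it, 5 rose, 0 fell and 12 did not pass, against 7.00% higher and 4.92% lower of all tested genes. Both 2KO libraries lay above both controls for 14 of the 17, against 29.0% of all tested genes, and the median log2 fold change was 0.46. Leaving out 1 library at a time gave 4 to 8 genes called higher, the 8 without control 1, and the fits on FPKM gave 2, 1 and 0. Phlda1 rose from 45.0 and 47.5 CPM to 150 and 104 CPM (a log2 fold change of 1.46, adjusted p = 0.00120, edgeR), with exons that overlap the noncoding gene Gm28592. Egr1, an immediate early transcription factor, rose from 3145 and 2818 CPM to 4582 and 4903 CPM (0.67, adjusted p = 0.00512). Spry4, an inhibitor of the Ras pathway, rose from 33.3 and 25.2 CPM to 51.2 and 61.3 CPM (0.94, adjusted p = 0.0200). Dusp4, a phosphatase of ERK, rose from 14.9 and 5.87 CPM to 27.4 and 33.2 CPM (1.54, adjusted p = 0.0255), and Ier3 from 112 and 83.7 CPM to 161 and 150 CPM (0.67, adjusted p = 0.0344). Spry1, Fos and Spred1 did not have both 2KO libraries above control, with Fos at 552 and 449 CPM in control and 420 and 507 CPM in 2KO. The call of Spry4 was lost without 2KO 2 (adjusted p = 0.0990) and that of Ier3 without control 2 (0.0953) and without 2KO 1 (0.106). The genes respond to other receptors than the ErbB family too, and their link to the ligands above was not tested. The Rn45s share was higher and the summed suprabasal markers were lower in the same libraries, as given above, and their part in these differences was not tested.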

How the data were processed

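RNA-seq data of 4 libraries, 2 in each group, were used (amplified cDNA, 100-nucleotide single reads, per the labels' protocols). Whole-number read counts per gene and FPKM values were deposited by the authors. TopHat2 2.0.13, HTSeq 0.6.1, Cufflinks 2.2.1, DESeq2 1.6.3 and build mm10 appear in the submitters' processing notes. The sources used here do not give the role of each, the annotation or whether strand was used. For the counts the test was that of edgeR 4.0.16, run in R 4.3.3 (TMM, filterByExpr, quasi-likelihood test of genotype, two-sided, Benjamini-Hochberg adjustment over all 15336 genes tested, threshold 0.05), and the fit was tested on simulated data. Standard errors are the log2 fold change divided by the square root of F. CPM uses TMM-scaled sizes. The members and lists were chosen with earlier results of these data known. Named were all members and up to 4 called genes of each pathway list by smallest p, or the 2 most abundant where none was called. The 3 genes nearest Erbb4, with predicted gene models left out, were named too. Egf, Nrg2, Nrg3, Adam17, Ier3, Spry1, Fos and Spred1 were named after their values were seen. Alternatives were RLE and upper-quartile scaling, DESeq2 1.42.0, limma-voom and limma-trend (limma 3.58.1), other filters, a replicate block, Rn45s left out, each library left out, and exon length (GENCODE M21) in place of FPKM. No value column was left unused. Replicates of either group were separate libraries, with a chi-square of 30.2 (control) and 23.7 (2KO) per degree of freedom.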

Additional observations from a re-analysis of the deposited data

How the results depend on the processing

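Other settings changed counts of calls as follows, and the cause was not tested. DESeq2 and limma-voom each called 1 member lower, against 0 in the edgeR fit. With no filter on low counts, 1242 genes were lower against 754, 1 member was higher, 2 members were lower, and 5 pathway genes were lower against 2. With the replicate block 1 member (Hbegf, log2 fold change 0.78, adjusted p = 0.0346) was called higher. Over all tested genes, same-numbered libraries did not deviate together (correlation -0.02). Whether they share a litter or batch stays unknown, since a shared effect on few genes would hardly move this correlation. The fits on FPKM called 627 genes higher and 260 lower (pseudocount 1), 472 and 186 (pseudocount 0.1), or 0 and 0 (no filter, 3764 at an unadjusted p under 0.05), against 1073 and 754. Of pathway genes they called 3 higher and 1 lower, 1 and 0, or 0 and 0, and of ERK-induced genes 2, 1 and 0 higher. Leaving out each library in turn gave 839 to 1643 genes higher and 537 to 1104 lower, 0 to 1 members higher and 0 to 3 lower, 6 to 11 pathway genes higher and 0 to 4 lower, and 4 to 8 ERK-induced genes higher and 0 lower. The library left alone is then assumed to vary like the other group. The sign of the log2 fold change turned for Erbb2 with upper-quartile scaling (0.035), and for Nrg4 with limma-voom (-0.0089) and with FPKM and no filter (-0.51). Leaving out a library gave -0.17 to 0.19 for Erbb2, -0.60 to 0.17 for Erbb3, -2.14 to 0.37 for Ereg, -0.59 to 0.61 for Nrg4 and -0.080 to 0.12 for Cblb. The control level of Erbb4 rests on 4 reads.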
